A study of Mus musculus with 16 samples.

Results

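The 10 genes described here encode enzymes and accessory proteins of triglyceride handling: the carboxylesterase Ces1d, lipoprotein lipase (Lpl) and its capillary anchor Gpihbp1, the intracellular lipases Pnpla2, Lipe and Mgll, the acyltransferases Dgat1 and Dgat2, and the lipid droplet coat proteins Plin4 and Plin5. They were taken by name, 1 row each, from the 55487 gene rows of a table of read counts from mouse heart. They were chosen with earlier results of the same table known: Ces1d was selected on its measured falls after pressure overload, and the others were named with it as genes of the same pathway. For Ces1d the surgery contrasts and the comparison of genotypes after surgery are therefore given as values with no test. All 10 genes passed the filter on low counts and were tested, with 18275 genes in all.

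Poly(A) RNA was sequenced from the heart apex of 16 male mice, 4 in each of 4 groups. KO mice were whole-body knockouts, made with CRISPR/Cas9, of Cardinal (Gm12295), a long noncoding RNA, and Ctrl mice were wild-type (WT in the labels). Mice weighing 25 to 30 g underwent transverse aortic constriction (TAC), in which a suture tightened around the aortic arch raises the pressure the left ventricle must work against, or a sham operation without the suture, and hearts were collected 4 weeks later. The sham groups are called Ctrl sham and KO sham and the constricted groups Ctrl TAC and KO TAC; age and strain are not given in the sources used here.

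Working heart muscle takes most of its energy from fatty acids. Lipoprotein lipase, carried to the capillary surface by GPIHBP1, releases fatty acids from circulating triglyceride-rich particles. Inside the cardiomyocyte, fatty acids that are not burned at once are esterified, with the diacylglycerol acyltransferases DGAT1 and DGAT2 making the last bond of triglyceride, and are stored in lipid droplets coated by perilipins. Stored triglyceride is then cut in steps by adipose triglyceride lipase (Pnpla2), hormone-sensitive lipase (Lipe) and monoglyceride lipase (Mgll). Ces1d is a carboxylesterase with triglyceride hydrolase activity, best known from liver and adipose tissue.

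Total counts per library lay between 53169437 and 79404714. The deleted gene was read first: Gm12295 stood at 2.69 to 8.03 CPM (read counts of a gene divided by the TMM-scaled size of the library, a scaling that corrects for library composition) in the 8 Ctrl libraries and at 0.276 to 0.553 CPM in 7 of the 8 KO libraries. The library labelled KO TAC 4 held 4.55 CPM, inside the Ctrl range and against its label, so the falls of these genes in KO hearts, their differences between genotypes after TAC and the counts of the pathway lists are also given without it. Ctrl TAC 2 stood apart in another way, with 8 hepatocyte markers summing to 80.1 CPM against 4.71 to 9.71 CPM in the other 15 libraries. The apex samples carried cardiomyocyte RNA throughout, as 10 cardiomyocyte markers summed to 44522 CPM or more in every library.

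After TAC, 5 of the 9 genes other than Ces1d were lower in Ctrl hearts and 7 of 9 in KO hearts, and none was higher. In Ctrl hearts Lpl, Pnpla2, Lipe, Dgat2 and Plin4 fell. In KO hearts Mgll and Plin5 fell as well, and Gpihbp1 and Dgat1 passed the test in neither genotype. Calls were made at an adjusted p under 0.05, with the quasi-likelihood test of edgeR and Benjamini-Hochberg adjustment over all genes. Over all 18275 genes, 20% were called in either direction and 9.6% lower after TAC in Ctrl hearts, and 34.3% and 16.5% in KO hearts. The median log2 fold change of the 9 genes was -0.26 in Ctrl and -0.47 in KO hearts, where the median over all genes was 0.00 in both. The number called in Ctrl hearts depended on single libraries. It was 1, Lpl alone, without Ctrl sham 1 or without Ctrl TAC 4, and 3 without any one of Ctrl sham 3, Ctrl TAC 1, Ctrl TAC 3, KO TAC 1, KO TAC 2 or KO TAC 4. In KO hearts it was 7 without any single library, the library labelled KO TAC 4 included. Without that library the log2 fold changes in KO hearts were -0.33 for Lpl, -0.47 for Pnpla2, -0.88 for Lipe, -0.33 for Mgll, -0.83 for Dgat2, -0.99 for Plin4 and -0.62 for Plin5, and those that missed the test were -0.13 for Gpihbp1 and 0.07 for Dgat1. With library totals in place of TMM, which moved the median of all genes by 0.11 in Ctrl and 0.16 in KO hearts, it was 1 in Ctrl hearts. There Dgat2, Lipe and Plin4 also missed the test with no filter on low counts, Pnpla2 and Plin4 with a term for animal numbers starting with 25, and Plin4 in a fit to the 8 Ctrl libraries alone.

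**Figure D1:**
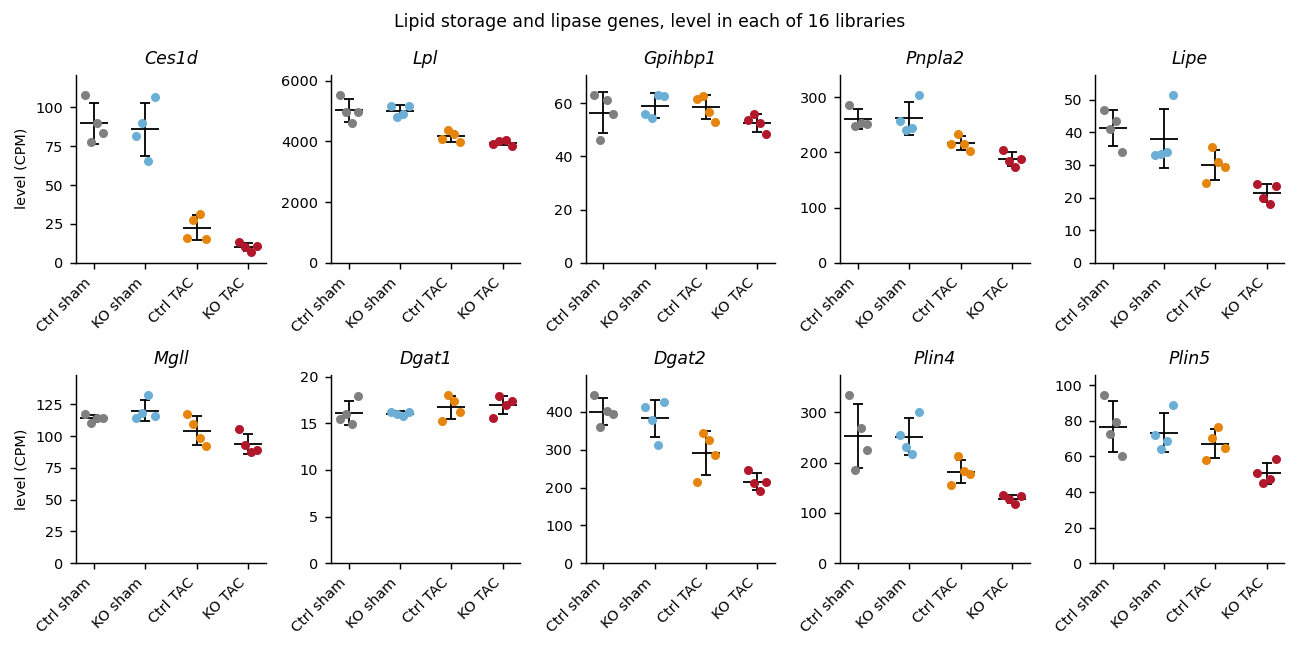
Level of each of the 10 genes in CPM (vertical axes, from 0) in the 16 libraries, by group. Points are libraries, and the horizontal line and bar are the group mean and 1 SD (n = 4). The lowest group mean is in KO TAC for 9 of the 10 genes, Ces1d among them, which was chosen for its falls, and for 34.8% of all tested genes.

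The genes differ widely in level. Per kilobase of annotated exon, which allows genes of different length to be set side by side, Lpl in Ctrl sham hearts stood at 479 ± 36.9 CPM per kb (mean ± SD, n = 4, as for all group values here). Dgat2 followed at 130 ± 11.2 and Pnpla2 at 86.1 ± 5.97 CPM per kb. Plin4 (43.9 ± 11.0), Ces1d (37.9 ± 5.58) and Plin5 (36.8 ± 6.82) were next and did not differ beyond their spread. Mgll (22.5 ± 0.533) and Gpihbp1 (22.1 ± 2.97) overlapped in the same way. Lipe and Dgat1 were the lowest, at 7.02 ± 0.921 and 5.26 ± 0.421 CPM per kb. The Lpl value divides by 10478 bases of exon summed over all annotated transcripts, and a shorter transcript in use would raise it.

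Ces1d (ENSMUSG00000056973; GRCm38 chromosome 8, 93166068 to 93197838, minus strand) showed the largest difference of the 10 genes. In sham hearts it was read at 108, 77.4, 89.9 and 83.7 CPM in Ctrl sham 1 to 4 and at 81.7, 89.7, 65.7 and 106.5 CPM in KO sham 1 to 4. In Ctrl TAC 1 to 4 it was at 16.3, 27.7, 31.3 and 15.3 CPM, and in KO TAC 1 to 4 at 13.5, 10.4, 6.72 and 10.6 CPM. Every TAC library lay below every sham library, and every KO TAC library below every Ctrl TAC library. The fitted level after TAC was 25.2% of sham in Ctrl hearts (log2 fold change -1.99, SE 0.26) and 12.0% in KO hearts (-3.06, SE 0.27; -3.07 without the library labelled KO TAC 4). After TAC the KO level was 45.4% of the Ctrl level (log2 difference -1.14, SE 0.26), or a log2 difference of -1.15 without that library. These values were part of why the gene was chosen. Among tested genes whose log2 CPM averaged at least 2, Ces1d ranked 4 by size of fall after TAC in Ctrl hearts, 1 in KO hearts, and 3 in KO TAC against Ctrl TAC. Among all 18275 tested genes it ranked 28, 15 and 203 in the same order. Its 2 higher Ctrl TAC values were in Ctrl TAC 2, which carried the hepatocyte markers, and Ctrl TAC 3, which did not. Without Ctrl TAC 2 the Ctrl TAC mean was 20.96 ± 8.98 CPM (n = 3), against 22.7 ± 8.07 CPM with it.

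In the unstressed heart, where the choice of the gene did not use the contrast, Ces1d did not pass the test between genotypes, at 85.9 ± 17.0 CPM in KO sham and 89.7 ± 13.2 CPM in Ctrl sham (log2 difference -0.06, SE 0.25, edgeR adjusted p = 1.00). The other 7 Ces1 genes of the cluster share 78.4% to 81.2% of aligned transcript bases with Ces1d and together held 0.312 to 2.78 CPM in a library. Of the 10173 named genes above the same minimum level, the 5 whose profile over the 16 libraries was closest to that of Ces1d were Penk, Kcnv2, Col6a6, Pfkfb1 and Lgals4. Likeness was measured as the root mean square difference of the centred log2 CPM profiles, which was 0.21 for Penk and 0.49 for Lgals4. Penk encodes the precursor of enkephalin peptides and Kcnv2 a modifier subunit of potassium channels. None of the other 9 lipid genes came as close, from 0.99 for Plin4 to 1.41 for Dgat1. The profiles hold the TAC falls for which Ces1d was chosen, so genes with much smaller falls could not come close. Penk had log2 fold changes after TAC of -1.68 in Ctrl and -2.86 in KO hearts. The largest fall of the 9 genes was that of Plin4 in KO hearts (-0.97). These distances are a description, not a test.

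Lpl and Gpihbp1 act together at the capillary wall, and here Lpl fell after TAC in both genotypes while Gpihbp1 passed the test in neither. Lpl (ENSMUSG00000015568; chromosome 8, 68880491 to 68907448, plus strand) was the most abundant of the 10. It was read at 5535.5, 4971, 4598 and 4962 CPM in Ctrl sham 1 to 4 and at 4076, 4360, 4235 and 3975 CPM in Ctrl TAC 1 to 4. KO sham 1 to 4 held 5164.5, 4791, 4913 and 5151 CPM and KO TAC 1 to 4 held 3928, 4004, 4032 and 3853 CPM. In both genotypes every TAC library lay below every sham library, which was the case, with the lower group after TAC, for 9.97% of all genes in Ctrl hearts and 16.6% in KO hearts. Lpl fell by 0.27 on the log2 scale in Ctrl hearts (SE 0.06, edgeR adjusted p = 0.0020) and by 0.34 in KO hearts (SE 0.06, edgeR adjusted p = 0.00011). It was the only one of the 9 genes called in Ctrl hearts under every alternative run.

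Gpihbp1 (ENSMUSG00000022579; chromosome 15, 75596628 to 75599481, plus strand) is made by capillary endothelial cells. It was read at 63.0, 46.1, 61.1 and 55.9 CPM in Ctrl sham 1 to 4, at 56.0, 54.3, 63.2 and 62.9 CPM in KO sham 1 to 4, at 61.6, 62.8, 56.9 and 53.1 CPM in Ctrl TAC 1 to 4 and at 53.6, 56.1, 52.5 and 48.3 CPM in KO TAC 1 to 4. The groups overlapped in all 4 comparisons. The log2 difference after TAC was 0.05 in Ctrl hearts (SE 0.09, edgeR adjusted p = 0.74) and -0.17 in KO hearts (SE 0.09, edgeR adjusted p = 0.14). The sum of 15 endothelial markers lay between 928 and 1092 CPM in every library, but single markers went both ways. After TAC, 2 of the 15 rose (Cldn5 and Plvap) and 1 fell (Car4) in KO hearts, and 1 rose (Plvap) in Ctrl hearts. The shares called over all genes were 34.3% and 20%. Car4 was also lower in KO TAC than in Ctrl TAC (-0.69, edgeR adjusted p = 0.0498). Relative to that sum, the log2 ratio of Gpihbp1 differed by -0.12 between KO TAC and KO sham (exact two-sided permutation p = 0.17, adjusted p = 0.46 over 8 ratio comparisons, n = 4 per group) and by -0.10 between KO TAC and Ctrl TAC (exact permutation p = 0.14, adjusted p = 0.46). Without the library labelled KO TAC 4 these were -0.09 and -0.08 (exact permutation p = 0.26 for each). Relative to Pecam1 and Cdh5 only, they were -0.17 and -0.15 (exact permutation p = 0.14 and 0.20).

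The lipases of the droplet are given in the order in which they act. Pnpla2 (ENSMUSG00000025509; chromosome 7, 141455198 to 141460743, plus strand), which makes the first cut in triglyceride, was read at 286.9, 248.7, 252.8 and 251.6 CPM in Ctrl sham 1 to 4 and at 215.7, 234.1, 215.1 and 203.3 CPM in Ctrl TAC 1 to 4. KO sham 1 to 4 held 257.2, 241.3, 243.5 and 304.7 CPM, and KO TAC 1 to 4 held 205.3, 185.3, 174.6 and 187.9 CPM. The TAC and sham libraries did not overlap in either genotype. Pnpla2 fell by 0.26 on the log2 scale in Ctrl hearts (SE 0.07, edgeR adjusted p = 0.017) and by 0.47 in KO hearts (SE 0.07, edgeR adjusted p = 7.10e-05). The call in Ctrl hearts was lost without Ctrl sham 1 (adjusted p = 0.074), the highest of its group, and without Ctrl TAC 4 (adjusted p = 0.063).

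Lipe (ENSMUSG00000003123; chromosome 7, 25379527 to 25398710, minus strand), the hormone-sensitive lipase, stood at 46.9, 41.1, 43.3 and 34.0 CPM in Ctrl sham 1 to 4 and at 24.4, 35.4, 30.8 and 29.2 CPM in Ctrl TAC 1 to 4. In KO hearts it stood at 33.1, 33.4, 34.1 and 51.5 CPM in sham 1 to 4 and at 24.1, 19.96, 18.03 and 23.4 CPM in TAC 1 to 4. In Ctrl hearts the highest TAC library overlapped the lowest sham library, while in KO hearts the groups did not overlap. The log2 fold change was -0.47 in Ctrl hearts (SE 0.15, edgeR adjusted p = 0.047), and -0.83 in KO hearts (SE 0.16, edgeR adjusted p = 0.00077). The Ctrl call was lost in 10 of 16 fits without 1 library (Ctrl sham 1, 2 or 3, KO sham 3, Ctrl TAC 1, 3 or 4, or KO TAC 1, 2 or 4), with values of -0.48 to -0.38, and the KO call in none. Of its exon bases, 15.6% are shared with a gene on the other strand, and whether counting used the strand is not given in the sources used here.

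Mgll (ENSMUSG00000033174; chromosome 6, 88724412 to 88828360, plus strand), which completes the breakdown to glycerol, was called in KO hearts and not in Ctrl hearts. Ctrl sham libraries lay between 110.6 and 117 CPM and Ctrl TAC libraries between 92.5 and 117.5 CPM, overlapping (log2 fold change -0.13, SE 0.07, edgeR adjusted p = 0.25). KO sham 1 to 4 held 114, 118, 132 and 115 CPM, above KO TAC 1 to 4 at 105.5, 93.0, 87.2 and 89.3 CPM (log2 fold change -0.36, SE 0.07, edgeR adjusted p = 0.00094). Scaling by library totals without TMM, which moved the median of all genes by 0.16 in KO hearts, gave Mgll -0.20 there, relative to that shift still lower but no longer called (adjusted p = 0.061). The difference between the genotypes' responses was -0.23 (SE 0.10, edgeR adjusted p = 0.42) and did not pass the test.

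Of the acyltransferases, Dgat2 fell after TAC in both genotypes and Dgat1 passed the test in neither. Dgat2 (ENSMUSG00000030747; chromosome 7, 99153658 to 99182719, minus strand) was read at 444.6, 360.7, 403.2 and 395.4 CPM in Ctrl sham 1 to 4 and at 213.5, 345.0, 325.2 and 285.3 CPM in Ctrl TAC 1 to 4. It was read at 411.8, 378.4, 313.7 and 426.1 CPM in KO sham 1 to 4 and at 245.3, 211.2, 190.8 and 213.7 CPM in KO TAC 1 to 4. Every TAC library was below every sham library of its genotype, and Ctrl TAC 1 lay among the KO TAC libraries. Dgat2 fell by 0.46 on the log2 scale in Ctrl hearts (SE 0.13, edgeR adjusted p = 0.022), a call lost without Ctrl sham 1 (-0.40, adjusted p = 0.074) or Ctrl TAC 4 (-0.45, adjusted p = 0.058), and by 0.83 in KO hearts (SE 0.13, edgeR adjusted p = 0.00016). Dgat1 (ENSMUSG00000022555; chromosome 15, 76502015 to 76511953, minus strand) lay between 14.9 and 18.03 CPM in all 16 libraries. Its log2 fold change after TAC was 0.06 in Ctrl hearts (SE 0.07, edgeR adjusted p = 0.61) and 0.08 in KO hearts (SE 0.07, edgeR adjusted p = 0.40), and only with library totals was it called, higher in KO hearts (0.24, adjusted p = 0.014).

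Plin4 (ENSMUSG00000002831; chromosome 17, 56100591 to 56109803, minus strand) and Plin5 (ENSMUSG00000011305; chromosome 17, 56111601 to 56117596, minus strand) are neighbours, 1797 bases apart on the same strand. PLIN5 ties droplets to mitochondria in tissues that burn fat, and PLIN4 is a coat protein of newly formed droplets. The stretches upstream of both genes, and of Pnpla2, whose enzyme works on the droplets they coat, are shown as those of 2 neighbouring coat genes and a droplet lipase. The RefSeq table (GRCm38.p6) held an entry for these 3 and for Lipe and Mgll, and all 5 fell after TAC in KO hearts. The stretches run 5′ to 3′ on the strand of the gene and end at the base before its start, which for Plin4 and Plin5 is the gene start given above and for Pnpla2 the RefSeq start, slightly upstream of it. Capitals mark AGGTCA, the half-site letters of many nuclear receptors, PPARs among them, searched on both strands.
Plin4, chr17:56109804-56110032: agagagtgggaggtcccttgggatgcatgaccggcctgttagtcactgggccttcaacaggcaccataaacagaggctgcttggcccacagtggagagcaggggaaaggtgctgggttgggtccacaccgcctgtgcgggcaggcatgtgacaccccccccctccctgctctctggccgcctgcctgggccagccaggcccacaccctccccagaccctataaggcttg
Plin5, chr17:56117597-56117798: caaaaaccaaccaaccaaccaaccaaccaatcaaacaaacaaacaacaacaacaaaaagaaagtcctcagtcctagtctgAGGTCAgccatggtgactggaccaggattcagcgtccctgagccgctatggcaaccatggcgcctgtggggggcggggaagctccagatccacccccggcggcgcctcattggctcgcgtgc
Pnpla2, chr7:141454938-141455187: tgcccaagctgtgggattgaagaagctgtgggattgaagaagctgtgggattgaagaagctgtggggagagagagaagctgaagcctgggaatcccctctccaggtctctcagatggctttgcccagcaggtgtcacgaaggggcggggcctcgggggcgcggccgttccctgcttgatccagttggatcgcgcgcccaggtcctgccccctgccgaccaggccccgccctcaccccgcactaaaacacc
The Plin5 stretch holds the half-site letters 1 time, 122 bases upstream of the gene start, and the Plin4 and Pnpla2 stretches hold none. The full windows run from 250 bases before to 50 bases after a start. AGGTCA is in 2 of the 8 member windows, both of Plin5, and in 16.3% of 32851 promoters. The paired form AGGTCANAGGTCA, in which N is any base, is in 0.0396% of them and in none of the 8 windows of the 5 members with an entry. A match is a description of the letters, not of a site in use.

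Plin4 was read at 334.6, 186.0, 268.3 and 224.4 CPM in Ctrl sham 1 to 4 and at 155.1, 212.9, 183.1 and 178.1 CPM in Ctrl TAC 1 to 4, with 1 Ctrl sham library inside the TAC range. KO sham 1 to 4 held 254.4, 230.8, 218.2 and 301.7 CPM, and KO TAC 1 to 4 held 135.9, 126.9, 117.4 and 133.3 CPM, well apart. Its log2 fold change was -0.47 in Ctrl hearts (SE 0.15, edgeR adjusted p = 0.040) and -0.97 in KO hearts (SE 0.15, edgeR adjusted p = 0.00019), the largest fall of the 9 genes in KO hearts. The call in Ctrl hearts was lost in 9 of 16 fits without 1 library (Ctrl sham 1 or 3, KO sham 1, Ctrl TAC 1, 3 or 4, or KO TAC 1, 2 or 4), with values from -0.48 to the -0.31 given without Ctrl sham 1. For Plin5, Ctrl sham 1 to 4 held 94.6, 72.6, 79.4 and 60.5 CPM and Ctrl TAC 1 to 4 held 57.8, 70.2, 76.5 and 64.6 CPM, overlapping (log2 fold change -0.19, SE 0.13, edgeR adjusted p = 0.36). KO sham 1 to 4 held 71.9, 64.4, 68.6 and 88.9 CPM and KO TAC 1 to 4 held 50.9, 45.2, 47.3 and 58.8 CPM, without overlap (-0.54, SE 0.13, edgeR adjusted p = 0.0054).

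**Figure D2:**
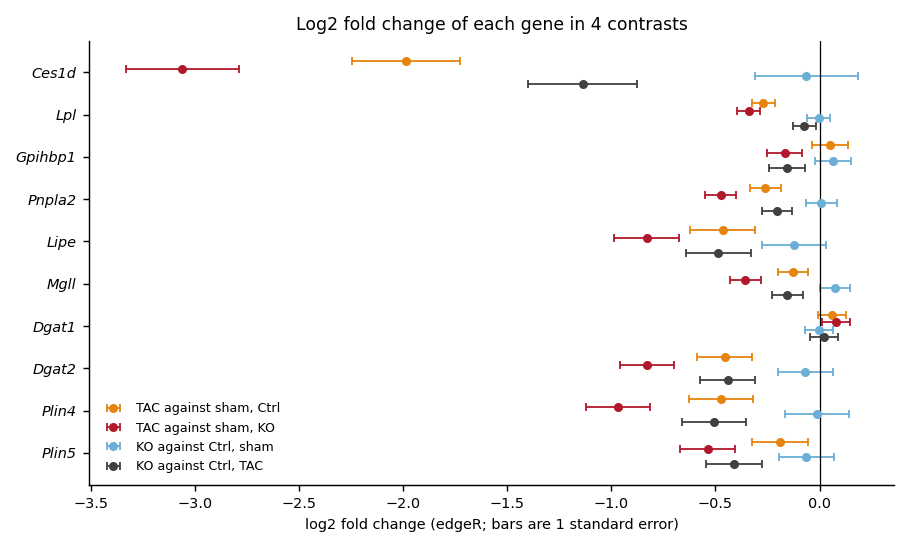
Log2 fold change (horizontal axis) of each of the 10 genes in 4 contrasts, with bars of 1 standard error from the edgeR fit to 16 libraries. The KO against Ctrl points in sham hearts lie within 0.12 of 0, whereas the TAC points in KO hearts lie to the left of those in Ctrl hearts for every gene but Dgat1. Ces1d is shown as a description, since it was chosen for its falls.

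The question of whether loss of Cardinal alone altered these genes is read from the sham hearts. There all 10 genes had log2 differences between -0.12 (Lipe, SE 0.15) and 0.07 (Mgll, SE 0.07), with edgeR adjusted p = 1.00 for each and none of the 10 at an unadjusted p under 0.05. Over all genes 0% were called by edgeR, with 479 genes (2.62%) at an unadjusted p under 0.05, and DESeq2 called 3 genes, none of them among the 10. A term for the animal numbers starting with 33, which only sham animals carried, turned the sign of 5 of the 10 differences, none past the test. KO sham 4 was the only KO sham animal outside this series, and Ctrl sham 4 the only Ctrl sham animal inside it. The TAC contrast in KO hearts is therefore tied to the series. The comparison of genotypes in sham hearts is likewise only partly separable from it. The deleted gene itself was not called in this comparison (Gm12295, log2 difference -2.92, SE 0.82, edgeR adjusted p = 1.00), although its KO sham libraries all lay below its Ctrl sham libraries. Without the library labelled KO TAC 4, which enters the estimate of the spread, it was called (-2.92, SE 0.32, edgeR adjusted p = 0.0026), and the 10 lipid genes still had adjusted p = 1.00 each.

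After TAC, 8 of the 9 genes were lower in KO than in Ctrl hearts, and none passed the edgeR test, against 2.68% of all genes called and 1.32% called lower. At an unadjusted p under 0.05 stood 6 of the 9, against 18.5% of all genes, and the median log2 difference was -0.20. The largest differences were those of Plin4 (-0.51, SE 0.15, edgeR adjusted p = 0.090), Lipe (-0.49, SE 0.16, edgeR adjusted p = 0.11), Dgat2 (-0.44, SE 0.13, edgeR adjusted p = 0.082) and Plin5 (-0.41, SE 0.13, edgeR adjusted p = 0.11). Plin4 and Lipe were the 2 genes whose KO TAC libraries all lay below all Ctrl TAC libraries, as 4.99% of all genes did. The DESeq2 Wald test called these 4 genes (adjusted p = 0.012 for Plin4, 0.021 for Lipe, 0.014 for Dgat2 and 0.028 for Plin5), and called 1183 genes in all where edgeR called 489. When 1 library was left out, the edgeR fit called Plin4 without Ctrl sham 1 (-0.51, adjusted p = 0.040) or Ctrl sham 2 (-0.51, adjusted p = 0.048), Lipe without KO sham 4 (-0.49, adjusted p = 0.043), and Dgat2 without Ctrl TAC 1 (-0.57, adjusted p = 0.013). None of the 9 was called when the library labelled KO TAC 4 was left out, with Plin5 at -0.49 (adjusted p = 0.080), Lipe at -0.53, Plin4 at -0.52, Dgat2 at -0.44 and the other 5 between -0.20 and 0.01.

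Of the TAC libraries, Ctrl TAC 2, 3 and 4 and KO TAC 4 come from animals whose numbers start with 25, a series the labels do not define, and no sham animal has such a number. With a term for this series the log2 differences after TAC were -0.41 for Plin4, -0.34 for Lipe, -0.28 for Dgat2 and -0.27 for Plin5, and all 9 genes missed the test. Genotype and number series are therefore only partly separable in the TAC hearts. The KO animal in the series is the library labelled KO TAC 4, whose Cardinal level went against its label. Without it the separation would rest on Ctrl TAC 1 alone, and the fit with this term was not run without it. In Ctrl hearts the TAC contrast is likewise tied to the series, which Ctrl TAC 2, 3 and 4 carry and no Ctrl sham animal does. Ctrl TAC 1, the Ctrl TAC animal outside the series, had the lowest value of its group for 5 of the 10 genes. Ctrl TAC 4, inside the series, also had the lowest value for 5.

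The log2 fold change after TAC was lower in KO than in Ctrl hearts for 8 of the 9 genes, a direction shared by 50.1% of all genes for their own change. The test of that difference, the interaction of genotype and surgery, called 0.0109% of all genes and none of the 9, the lowest adjusted p being 0.42. Its log2 value was -0.49 for Plin4 (SE 0.22), -0.37 for Dgat2 (SE 0.18), -0.36 for Lipe (SE 0.22) and -0.35 for Plin5 (SE 0.19), and -0.07 for Lpl (SE 0.08). Without the library labelled KO TAC 4 the values were -0.51 for Plin4, -0.37 for Dgat2, -0.41 for Lipe, -0.43 for Plin5 and -0.06 for Lpl, with 0.41 the lowest adjusted p of the 9. Plin4 and Mgll were the 2 genes at an unadjusted p under 0.05, as were 11.1% of all genes. The calls in KO hearts and their absence in Ctrl hearts for Mgll and Plin5 are thus not shown to differ between genotypes.

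The genes around these 10 were read from 6 lists of pathway genes, whose counts are also given without the library labelled KO TAC 4 in KO hearts and without Ctrl TAC 2 in Ctrl hearts where they changed. The shares over all genes stand beside these counts and those of the marker lists below. After TAC, 34.3% of all genes were called in either direction and 16.5% lower in KO hearts. In Ctrl hearts the shares were 20% and 9.6%. Among the partners of lipoprotein lipase and the lipoprotein receptors, 13 of 19 listed genes were tested, and 3 rose and 4 fell in KO hearts after TAC (2 and 3 in Ctrl hearts). Cd36, the fatty acid transporter of the cell surface, fell by 0.34 in Ctrl and 0.53 in KO hearts on the log2 scale (edgeR adjusted p = 0.0025 and 2.0e-05), from 1387 ± 131 CPM in Ctrl sham to 961 ± 52.5 CPM in KO TAC. Vldlr, a receptor that binds triglyceride-rich particles, fell by 0.32 and 0.43 (edgeR adjusted p = 0.0016 and 4.4e-05). Lrp1, a large endocytic receptor, was 0.60 and 0.85 higher (edgeR adjusted p = 0.00021 and 2.4e-06). Angptl4, a secreted inhibitor of lipoprotein lipase, was low and variable, with a log2 fold change of -0.68 in Ctrl (SE 0.43) and -0.998 in KO hearts (SE 0.44), and passed the test in neither. With a term for animal numbers starting with 33 Angptl4 was called in both (-0.93, adjusted p = 0.014, and -1.95, adjusted p = 0.00023), and without KO sham 1 it was called in KO hearts (-1.26, adjusted p = 0.030). Its KO value was -0.44 without KO sham 4.

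Of the cofactors of lipolysis and other lipases, 22 of 24 listed genes were tested, and 3 rose and 5 fell in KO hearts (2 and 3 in Ctrl hearts). Without the libraries named above, 4 rose and 4 fell in KO hearts, and 1 rose and 2 fell in Ctrl hearts. Abhd5, the protein that activates the Pnpla2 lipase, stood at 40.7 ± 1.69 CPM in Ctrl sham, 43.5 ± 1.83 in KO sham, 44.6 ± 1.52 in Ctrl TAC and 44.8 ± 1.80 in KO TAC, and was not called. With library totals it was called higher after TAC in Ctrl (0.24, adjusted p = 0.0019) and KO hearts (0.20, adjusted p = 0.0028), and without Ctrl TAC 2 in Ctrl hearts (0.155, adjusted p = 0.036). G0s2, the inhibitor of that lipase, was at 29.5 ± 13.5, 33.6 ± 9.54, 22.7 ± 2.19 and 30.1 ± 4.72 CPM in the same order, also without a call. The log2 ratio of Pnpla2 to G0s2 was 3.42, 3.43, 3.12 and 3.06 in Ctrl TAC 1 to 4 and 2.82, 2.41, 2.43 and 2.97 in KO TAC 1 to 4. These 2 groups did not overlap and differed by -0.60, at the smallest p the exact permutation test of 4 against 4 can give (exact p = 0.0286, adjusted p = 0.23 over 8 comparisons). Without the library labelled KO TAC 4 the difference was -0.71. In sham hearts the same ratio ranged from 2.35 to 3.75, which holds every TAC value. Nceh1, a neutral cholesterol ester hydrolase, fell by 0.31 in Ctrl and 0.45 in KO hearts (edgeR adjusted p = 9.7e-05 and 6.5e-07), Pnpla7, a lysophospholipase, fell by 0.22 and 0.39 (adjusted p = 0.039 and 0.00038), and Dagla, a diacylglycerol lipase, was 0.33 and 0.37 higher (adjusted p = 0.043 and 0.013). The Ctrl call of Pnpla7 was lost without any one of the 8 Ctrl libraries (-0.24 to -0.20). That of Dagla was lost without Ctrl sham 1, 3 or 4, Ctrl TAC 1, 2 or 4, or KO TAC 1 or 2 (0.26 to 0.36). Pnpla7 also missed the test in Ctrl hearts with library totals (-0.12), no filter (-0.22) or the term for 25 (-0.14). Dagla missed it there with no filter (0.33), the term for 33 (0.29) or the 8 libraries alone (0.33), and in KO hearts with the term for 33 (0.25, adjusted p = 0.23).

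**Figure D3:**
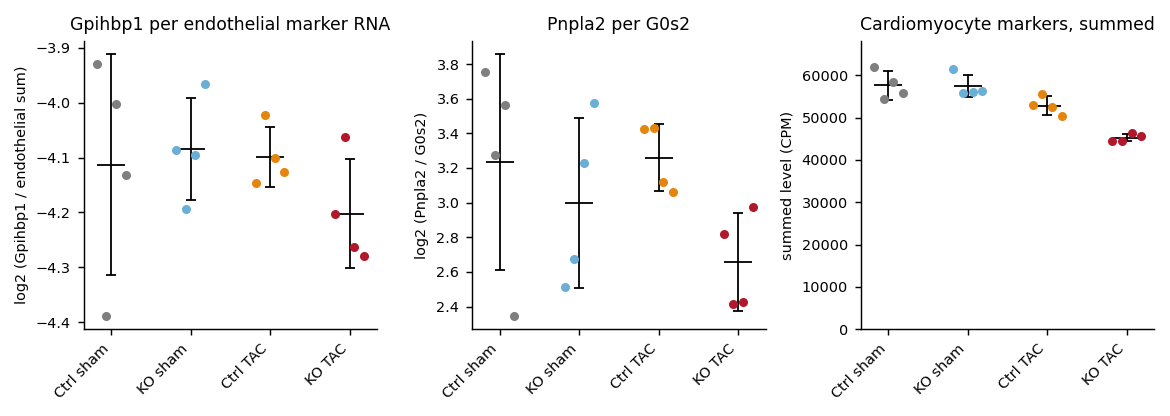
From left to right, the log2 ratio of Gpihbp1 to the sum of 15 endothelial markers, the log2 ratio of Pnpla2 to G0s2, and the summed CPM of 10 cardiomyocyte markers, in each library by group. Points are libraries, and the line and bar are the mean and 1 SD (n = 4); the Pnpla2 to G0s2 ratios of KO TAC lie below those of Ctrl TAC and inside the sham range, and the cardiomyocyte sum is lowest in KO TAC.

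Synthesis genes went both ways. Of 24 tested genes of triglyceride and sterol ester synthesis (27 listed), 9 rose and 4 fell in KO hearts (7 and 5 without the library labelled KO TAC 4), and 5 and 2 in Ctrl hearts (6 and 2 without Ctrl TAC 2). Acsl1, the main cardiac enzyme that activates fatty acids, fell by 0.31 in Ctrl and 0.50 in KO hearts (edgeR adjusted p = 0.018 and 0.00024), and Agpat3, an acyltransferase of an earlier step, fell by 0.24 and 0.49 (adjusted p = 0.040 and 0.00012). The Ctrl call of Acsl1 was lost without Ctrl sham 1, Ctrl TAC 1 or Ctrl TAC 4 (-0.29 to -0.26), and that of Agpat3 without Ctrl sham 1, 2 or 3, KO sham 2, Ctrl TAC 1 or 4, or KO TAC 1 (-0.24 to -0.19). Both also missed the test in Ctrl hearts with library totals (-0.20 for Acsl1, -0.13 for Agpat3), and Agpat3 with no filter or in the 8 libraries alone (-0.24 in both). Soat1, which makes cholesterol esters, was 0.39 and 0.55 higher (adjusted p = 0.0063 and 0.00015), the Ctrl call being lost with the term for 25 (0.31, adjusted p = 0.12). The carboxylesterase family beyond Ces1d was barely expressed, with 5 of 18 listed genes passing the filter and none reaching an average log2 CPM of 2; of the 5, 2 rose and 1 fell in KO hearts, and likewise 2 and 1 in Ctrl hearts, while without the library labelled KO TAC 4 none fell in KO hearts.

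Among other genes of the droplet coat and its formation, 22 of 25 listed genes were tested, and 4 rose and 8 fell in KO hearts (4 and 6 without the library labelled KO TAC 4), and 3 and 2 in Ctrl hearts (4 and 3 without Ctrl TAC 2). Fitm2 and Fitm1, which help droplets bud from the endoplasmic reticulum, fell in both genotypes. Fitm2 stood at 168 ± 9.97 CPM in Ctrl sham, 177 ± 8.84 in KO sham, 129 ± 15.3 in Ctrl TAC and 100.1 ± 8.64 in KO TAC (log2 fold change -0.38 in Ctrl and -0.82 in KO hearts, edgeR adjusted p = 0.0018 and 2.6e-07). For Fitm1 the log2 fold change was -0.32 in Ctrl (adjusted p = 0.011) and -0.67 in KO hearts (adjusted p = 6.0e-06), the Ctrl call being lost with library totals (-0.21) and in the 8 libraries alone (-0.315, adjusted p = 0.051). Both were also lower in KO TAC than in Ctrl TAC, by -0.37 for Fitm2 (adjusted p = 0.020) and -0.38 for Fitm1 (adjusted p = 0.023), but without Ctrl TAC 2 neither call remained (-0.28, adjusted p = 0.072, and -0.32, adjusted p = 0.090). Fitm1 also lost it without Ctrl TAC 3, KO TAC 2 or KO TAC 3, and Fitm2 without KO TAC 1, KO TAC 2 or KO TAC 3, with values from -0.40 to -0.32 and from -0.38 to -0.32. With the term for 25, Fitm1 (-0.29, adjusted p = 0.19) and Fitm2 (-0.31, adjusted p = 0.13) both missed the test, as they did in the 8 TAC libraries alone (adjusted p = 0.072 and 0.065). Plin2 and Plin3, the widely expressed perilipins, fell by 0.19 and 0.25 in KO hearts (adjusted p = 0.020 for each), calls lost without KO sham 1 or KO TAC 3 (-0.17 for Plin2, -0.23 and -0.21 for Plin3) and, for Plin2, without KO TAC 4 (-0.17). Both also missed the test with library totals (-0.03 for Plin2, -0.09 for Plin3) or the term for 33 (-0.15 and -0.18), and Plin2 with no filter (-0.17). Cidea, a droplet protein best known from brown fat, was 0.42 higher in Ctrl and 0.37 higher in KO hearts (adjusted p = 0.00056 and 0.00073).

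The lists' regulators were mostly lower after TAC in KO hearts. Of 17 genes for PPARs, their partners and other lipid transcription regulators, 11 fell and 1 rose in KO hearts, and 4 fell and none rose in Ctrl hearts (6 fell without Ctrl TAC 2). Rxrg, a retinoid X receptor that pairs with PPARs, fell by 0.22 in Ctrl and 0.57 in KO hearts (edgeR adjusted p = 0.026 and 3.0e-06), and was 0.28 lower in KO TAC than in Ctrl TAC (log2 difference -0.28, adjusted p = 0.034). The last call was lost without Ctrl TAC 2 or 3 or KO TAC 2 or 3 (-0.28 to -0.24), and the Ctrl call without Ctrl sham 1 or 2 or Ctrl TAC 1 or 4 (-0.21 to -0.17). Rxrg also missed the test between genotypes after TAC with library totals (-0.24), no filter (-0.27), the term for 25 (-0.24, adjusted p = 0.18) or the 8 libraries alone (-0.28), and in Ctrl hearts with library totals (-0.11), no filter (-0.215) or the term for 25 (-0.27). Ppara, the main PPAR of fat oxidation, had a log2 fold change of -0.23 in Ctrl (adjusted p = 0.40) and fell by 0.53 in KO hearts (adjusted p = 0.029). Pparg had 0.00 in Ctrl (adjusted p = 0.99) and fell by 0.34 in KO hearts (adjusted p = 0.025). Ppargc1a, a coactivator of mitochondrial genes, had -0.20 in Ctrl (adjusted p = 0.60) and fell by 0.62 in KO hearts (adjusted p = 0.046). Cebpa had 0.26 in Ctrl (adjusted p = 0.13) and was 0.35 higher in KO hearts (adjusted p = 0.025). These 4 calls were each lost when single libraries were left out: Ppara without KO sham 1, 2 or 4 or KO TAC 2 or 3 (-0.54 to -0.44), Pparg without KO sham 4 or KO TAC 2 or 3 (-0.34 to -0.25), Cebpa without KO sham 2 or KO TAC 1 or 2 (0.25 to 0.34), and Ppargc1a in 10 of 16 fits, all but those without Ctrl sham 2 or 4, Ctrl TAC 1, 3 or 4 or KO TAC 4 (-0.66 to -0.50). With library totals Ppara (-0.37), Pparg (-0.18) and Ppargc1a (-0.46) missed the test, and Ppara and Ppargc1a also did with no filter (-0.51 and -0.60) or the term for 33 (-0.38 and -0.39). With the term for 25 Ppara was called in Ctrl hearts (-0.60, adjusted p = 0.049), and with library totals Cebpa was called higher there (0.37, adjusted p = 0.033).

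**Figure D4:**
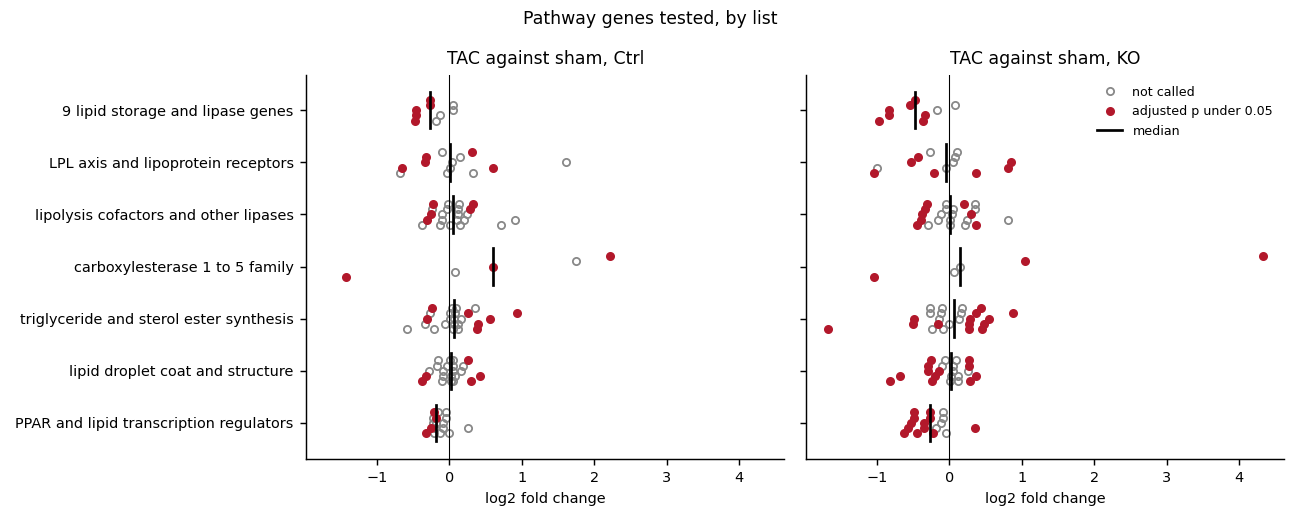
Log2 fold change after TAC (horizontal axes) in Ctrl (left) and KO hearts (right) of the 9 genes other than Ces1d and of the tested genes of 6 pathway lists. Each circle is a gene, filled where the edgeR adjusted p was under 0.05, and the vertical bar is the median. None of the 9 genes is filled to the right of 0 in either panel, whereas the synthesis and droplet lists have filled genes on both sides.

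Cell-type markers moved with the groups in this bulk tissue, in which fewer cells of a type and less RNA per cell cannot be told apart. The 10 cardiomyocyte markers summed to 54328 to 61981 CPM in Ctrl sham, 55820 to 61445 in KO sham, 50370 to 55604 in Ctrl TAC and 44522 to 46337 in KO TAC. Of the 10, 6 fell and 1 rose in KO hearts after TAC (4 and 3 in Ctrl hearts, or 5 and 3 without Ctrl TAC 2). The 10 fibroblast markers summed to 634 to 769, 669 to 711, 1180 to 1667 and 1912 to 2077 CPM in the same order. Of these, 9 of 10 rose in KO hearts and 6 in Ctrl hearts (8 without Ctrl TAC 2). The KO counts of cardiomyocyte and fibroblast markers were equal without the library labelled KO TAC 4. The 10 macrophage markers went from 156 to 213 and 152 to 201 CPM in sham hearts to 218 to 272 CPM in Ctrl TAC and 239 to 332 CPM in KO TAC. All 10 rose in KO hearts, also without the library labelled KO TAC 4, and 6 in Ctrl hearts (5 without Ctrl TAC 2). The part of these shifts in the falls of Pnpla2, Lipe, Dgat2, Plin4 and the other lipid genes was not tested. Fat cells also carry most of these transcripts in quantity. The 16 adipocyte markers, 8 of them tested, summed to 50.9 to 55.1 CPM in Ctrl sham, 46.7 to 57.5 in KO sham, 47.8 to 64.4 in Ctrl TAC and 41.5 to 50.3 in KO TAC. The 6 defining ones (Adipoq, Retn, Lep, Plin1, Adrb3 and Cidec) did not pass the filter and summed to at most 0.391, 0.595, 1.81 and 0.357 CPM in the same order. Adipoq, the adipocyte hormone, reached at most 0.657 CPM and was at 0 in 3 libraries, and Lep was at 0 in 15. Of the 8 tested adipocyte markers, 1 rose and 3 fell in KO hearts after TAC (1 and 2 without the library labelled KO TAC 4). In Ctrl hearts 1 rose and 1 fell. All 8 were lower in KO TAC than in Ctrl TAC, against 50.5% of all genes, with a median log2 difference of -0.52 and 1 called (Slc36a2). The largest differences had wide errors: Pck1 (-1.83, SE 0.82), Car3 (-1.71, SE 0.74) and Cfd (-1.55, SE 0.65). Ctrl TAC 2, which carried the hepatocyte markers, also had the highest adipocyte sum of the 16 libraries (64.4 CPM). Ctrl TAC 1, 3 and 4 held 47.8, 56.3 and 53.8 CPM. The differences of the 8 markers are not given here without Ctrl TAC 2. The part of fat cells in the falls of the lipid genes was not tested either.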

How the data were processed

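RNA was measured by poly(A) RNA-Seq (paired 150-base reads) in 16 mouse hearts. The file deposited by the authors holds raw counts, 1 row for each Ensembl gene and 1 column for each animal, without normalization. Submitters' processing notes name cutadapt 2.3, FastQC, HISAT2 2.1.0, edgeR 3.26.1 and GRCm38. The counting program, annotation and strand setting are not given in the sources used here. Reads shared by overlapping or near-identical genes may therefore be split or lost, which touches the exon bases shared with genes on the other strand by Lipe (15.6%), Mgll (3.29%) and Plin4 (0.294%). Columns were matched to samples by animal number, replicates were numbered in accession order, and p-values measure the spread between animals.

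Names and positions came from GENCODE M21 (GRCm38), which held 99.4% of identifiers; the others carried 0.0131% of counts. Genes were filtered with filterByExpr and scaled by TMM (edgeR 4.0.16, R 4.3.3), leaving 18275. A quasi-likelihood model with 4 group means was fitted to all 16 libraries (glmQLFit, robust), and 5 contrasts were tested two-sided with Benjamini-Hochberg adjustment over all genes. The pipeline was tested on simulated data. Totals of 53169437 to 79404714 counts make counting noise matter mainly for low values, such as Cardinal, the adipocyte markers and the other carboxylesterases. Ratios were compared by exact permutation over 70 relabellings. Transcript identity was computed with blastn 2.17.0.

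The 10 genes and all lists were chosen with earlier results of these data known. Beside them are named, from each pathway list, the largest rise and the 2 largest falls among genes called after TAC in KO hearts whose log2 CPM averaged at least 2, 9 further genes (Angptl4, Abhd5, G0s2, Plin2, Plin3, Cidec, Adipoq, Ppara and Pparg), and the 5 genes nearest to Ces1d in profile. Alternatives were RLE size factors, library totals without TMM (added after seeing the data), DESeq2 1.42.0, no filter beyond 1 count, at least 10 counts in every library, terms for animal numbers starting with 25 or 33, the 8 libraries compared alone, and leaving out each library, or Ctrl TAC 2 and KO TAC 4 together. For the Gpihbp1 ratio, Pecam1 and Cdh5 alone in place of the 15 endothelial markers were a further alternative. List counts without Ctrl TAC 2 or KO TAC 4 were added after seeing the data.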

Additional observations from a re-analysis of the deposited data

Results flagged for a closer look

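Each of the 10 genes was examined in each group for a library far from the other 3, with Dixon's ratio on log2 CPM at its 95% critical value for 4 values. Of the 40 groups so tested, 2 exceeded it, and chance alone flags about 1 group in 20. Pnpla2 in Ctrl sham 1 stood at 286.9 CPM against 248.7 to 252.8 CPM in the other 3 Ctrl sham libraries (ratio 0.884). Lipe in KO sham 4 stood at 51.5 CPM against 33.1 to 34.1 CPM in the other 3 KO sham libraries (ratio 0.93). Without KO sham 4, Lipe in KO hearts fell by 0.65 after TAC on the log2 scale and remained called.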

How the results depend on the processing

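No paired analysis was possible because the labels carry only animal numbers, which no 2 samples share, so no replicate number pairs the groups. After TAC in KO hearts 7 of the 9 genes were called in every alternative, although with library totals Mgll left and Dgat1 entered. In Ctrl hearts the 5 calls became 1 with library totals, 2 with no filter and 3 with a term for numbers starting with 25, and 1 to 5 without 1 library. After TAC between genotypes the 0 calls became 4 with DESeq2, 2 (Lipe and Plin5) with a term for numbers starting with 33, 1 (Plin4) in the fit to 8 libraries, and 0 to 1 without 1 library. Genes called in all in that contrast went from 489 to 1183 with DESeq2, 285 with no filter, 12 with the term for 25, 154 in 8 libraries, 109 without Ctrl TAC 2 and KO TAC 4, and 63 to 733 without 1 library. For KO against Ctrl in sham they went from 0 to 3 with DESeq2, 2 in 8 libraries, 1 without Ctrl TAC 2 and KO TAC 4, and 0 to 2 without 1 library. For the interaction they went from 2 to 132 with DESeq2, 1 with no filter, 0 with either term or without those 2 libraries, and 0 to 18 without 1 library. The causes were not tested.

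Signs turned for results that were not called. With library totals these were Plin2 after TAC in Ctrl hearts (0.018) and between genotypes after TAC (0.010), G0s2 in KO hearts (0.005), Cidea between genotypes after TAC (0.001) and Pnpla2 in sham (-0.006). With the term for 25 they were Dgat1 (-0.027) and Pparg (-0.173) in Ctrl hearts, and Dagla (-0.004) and Plin2 (0.000) between genotypes after TAC. With the term for 33 they were Pparg in Ctrl hearts (-0.032), G0s2 in KO hearts (0.464) and, in sham, Ces1d (0.067), Lpl (0.016), Lipe (0.108), Plin4 (0.131) and Plin5 (0.144). Without Ctrl TAC 2 and KO TAC 4 they were Plin3 (-0.006) and Pparg (-0.035) in Ctrl hearts, Abhd5 between genotypes after TAC (-0.045), and in Ctrl hearts the log2 ratios of Gpihbp1 to endothelial markers (-0.012) and Pnpla2 to G0s2 (-0.032). The latter ratio between genotypes after TAC was -0.649 there (exact permutation p = 0.10, the smallest that 3 against 3 allows).

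Without 1 library, values crossed 0 as follows. In Ctrl hearts after TAC they ranged from -0.035 to 0.108 for Gpihbp1, -0.061 to 0.088 for Plin3 and -0.046 to 0.083 for Pparg, and in KO hearts from -0.276 to 0.015 for G0s2. In sham they ranged from -0.185 to 0.045 for Ces1d, -0.043 to 0.048 for Lpl, -0.022 to 0.121 for Gpihbp1, -0.073 to 0.060 for Pnpla2, -0.037 to 0.051 for Dgat1, -0.125 to 0.016 for Dgat2, -0.134 to 0.152 for Plin4 and -0.170 to 0.053 for Plin5. Between genotypes after TAC they ranged from -0.022 to 0.057 for Dgat1 and -0.021 to 0.025 for Abhd5, and in the interaction from -0.032 to 0.060 for Dgat1. The Gpihbp1 ratio ranged from -0.078 to 0.075 in Ctrl hearts and -0.064 to 0.089 in sham, and the Pnpla2 ratio from -0.272 to 0.197 in Ctrl hearts. Between genotypes after TAC these ratios stayed below 0, from -0.150 to -0.077 and from -0.706 to -0.519.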

Other observations

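Some libraries were the extreme of their group for many of the 10 genes. Ctrl sham 1 held the highest value of its group for 9 of the 10 genes, Ctrl TAC 2 for 7, and KO sham 4 and KO TAC 1 for 6 each. Ctrl sham 2 and KO TAC 3 held the lowest value of their groups for 6 genes each. G0s2 was highest in Ctrl sham 4, KO sham 1 and KO sham 2, at 49.5, 45.1 and 37.8 CPM, against 20.1 to 34.8 CPM in the other 13 libraries, and Angptl4 ranged from 1.45 CPM in the library labelled KO TAC 4 to 8.33 CPM in KO sham 4.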
